A study of Pilatotrama ljubarskyi with 14 samples.

Results

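Trametes ljubarskyi, a white-rot fungus studied here as strain BRFM1659, was grown on aspen, a hardwood, and on pine, a softwood, and its RNA levels on both woods were compared. The comparison covers the 846 genes, of 878 in the deposited table, whose mean log2 level was at least 4 on aspen or on pine. The 3 genes nearest to that limit had a higher mean of 4.05, 4.06 and 4.14 inside it and of 3.91, 3.75 and 3.68 outside it. Mycelium grew for 3 days in liquid culture at 15 g/l of wood, and polyA RNA was sequenced in 3 libraries from aspen and 2 from pine. The aspen was Wiley-milled at 1 mm and the pine was sifted to fragments under 2 mm. The pine medium also held 2.5 g/l of maltose, while the amount beside aspen could not be read from the labels. Wood species, particle size and a possible difference in added maltose cannot be told apart. Maltose alone at 20 g/l (3 libraries) served as the reference without wood, and ground wheat straw at 15 g/l with 2.5 g/l of maltose (3 libraries) as a plant material outside the comparison. A cellulose group (Avicel at 15 g/l with 2.5 g/l of maltose, 3 libraries) entered the estimate of the spread.

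White-rot basidiomycetes degrade all 3 main polymers of wood, secreting cellulases, hemicellulases and oxidative enzymes that act on lignin. Hardwood and softwood present them with different material. In hardwoods such as aspen the main hemicellulose is a glucuronoxylan and the lignin is built from syringyl and guaiacyl units. In softwoods such as pine galactoglucomannan is the main hemicellulose, the lignin is nearly all guaiacyl, and the wood carries resin. The table gives gene numbers of the JGI MycoCosm annotation and does not pair them with names or products. It therefore cannot be said here which of these numbers encode such enzymes, and genes are given by number.

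Levels are log2(normalized reads + 1), and the deposited value of a gene is the mean over the libraries of a substrate. Whole reads per library were recovered from these means for all 846 genes on pine and for 756 on aspen. The other 90 lay mostly above a level of 13 on aspen. Their own spread comes from pine and from those other substrates whose reads are known, and limma moderates it towards that of other genes. Across the 756 genes, Pearson's r was 0.988 to 0.992 between aspen libraries, 0.991 between the pine libraries, and 0.923 to 0.934 between an aspen and a pine library. The points of these correlations are genes, not independent replicates. The wood libraries held 850865 to 1178299 reads in these genes. The relative depth was 1.04 to 1.30 for aspen and 0.646 and 0.952 for pine. Nothing in the labels ties libraries to separate cultures, so that p-values measure the spread between libraries, which may be technical. This spread was small on both woods, with a median SD of 0.13 on aspen and 0.12 on pine (log2). It was 0.13 on straw, but 0.24 on maltose and 0.22 on cellulose. The error of a gene shares 1 spread over the substrates, so it may be too small for comparisons with maltose and too large for that of the woods. The values are bulk RNA of the mycelium, so that fewer cells using a gene and less of its RNA per cell cannot be told apart.

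Of the 846 genes, 208 differed between the woods, 63 of them higher on aspen and 145 lower on aspen. A gene was called when its log2 difference was at least 1 in size with a limma adjusted p under 0.05. Over the 867 genes tested in the whole table, 24% were called, 7.27% as higher and 16.7% as lower, and none of the called genes lay outside the 846. The called differences were mostly moderate, with a median of 1.58 for the genes higher on aspen and -1.39 for those lower on aspen. A difference of at least 4-fold was found in 33 genes, 15 higher and 18 lower on aspen, and of at least 8-fold in 3 genes. A further 245 genes passed the adjusted p with a difference under 1. For 390 genes (46.1%) the whole 95% interval of the difference lay between -1 and 1. The remaining 248 uncalled genes had intervals that reach past that size, so that a 2-fold difference was neither called nor excluded for them.

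The balance of directions depended on the scaling. The median aspen minus pine difference over the 846 genes was -0.26. With this median removed, 173 of the 846 genes were called, 92 higher and 81 lower on aspen (20.1%, 10.7% and 9.34% of the 867 tested). All 63 genes called higher before were called again, as were 81 of the 145 called lower. Removing a negative median enlarges every positive difference, so the 63 were practically bound to stay called. The sources used here do not say how the 878 genes of the table were chosen. The deposited scale and the median of these genes are both possible references, of which neither could be checked against the rest of the genome. Removing this median cannot reverse a difference of at least 1, so the 144 genes called on both scales necessarily kept their direction. The genes described below are all among these 144.

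**Figure D1:**
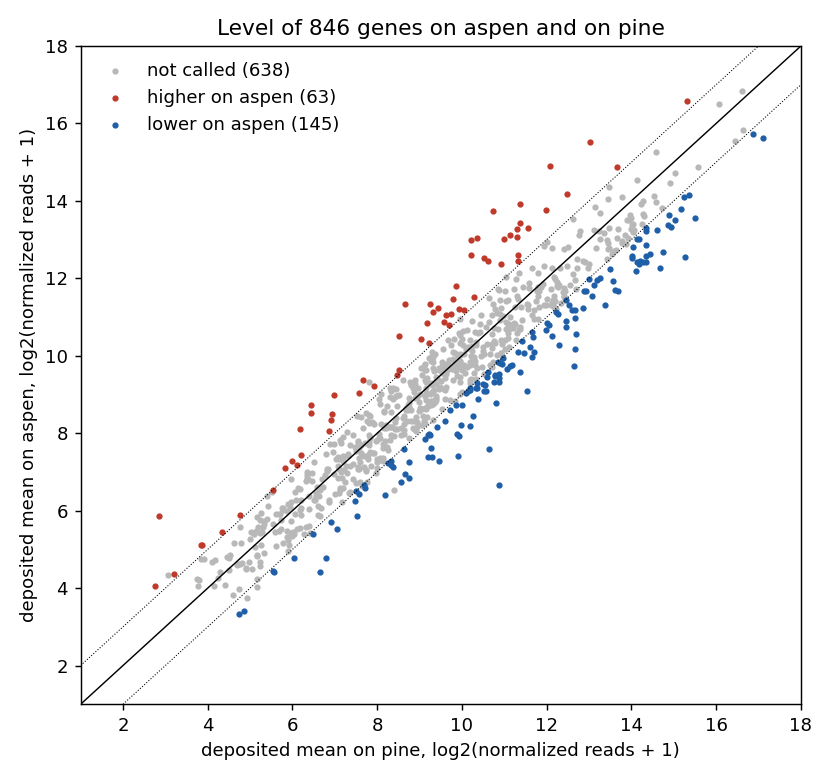
Mean level of each of the 846 genes on pine (x axis) and aspen (y axis), log2(normalized reads + 1), with each point 1 gene and the dotted lines at a difference of 1. The 63 genes higher on aspen and the 145 lower on aspen lie on both sides of the diagonal over nearly the whole range of levels.

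Libraries of the woods were well separated in the called genes. In all 46 genes called higher and 127 called lower with known aspen reads, no aspen library overlapped a pine library. This is a weak criterion with 3 against 2 libraries, since 75.7% of the 756 genes with known reads did not overlap, 24.9% with aspen above and 50.8% with aspen below. Calls became more frequent with level. When the genes were ranked by their mean over the 5 substrates, 16.3% of the lowest 282, 20.6% of the middle 282 and 36.9% of the highest 282 were called. The median standard error was 0.26 among the lowest and 0.17 among the highest. The median aspen minus pine difference was -0.14, -0.16 and -0.52 in the same order, so the shift towards lower values on aspen was largest in genes of high level. Of the 90 genes without aspen reads, 17 were called higher and 18 lower.

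The called genes were then set against maltose alone. That reference held 20 g/l of maltose and no solid, the pine medium 2.5 g/l of maltose, and the amount beside aspen is unknown. Effects of wood, of a solid as such and of the amount of maltose therefore cannot be told apart in these comparisons. A response to wood means here a difference from maltose alone. Among the 846 genes, 392 differed between aspen and maltose and 403 between pine and maltose. Over the 867 tested, these comparisons called 46.3% of genes (23.4% higher and 22.8% lower on aspen than on maltose) and 47.6% (29.6% higher and 18% lower on pine). A total of 177 genes were higher on both woods than on maltose and 122 lower on both. Another 93 were called against maltose on aspen only, 104 on pine only, and 350 on neither. No gene was called in opposite directions on the woods. Of the 208 genes that differ between aspen and pine, 85 (40.9%) were called in the same direction on both woods, against 299 (35.3%) of the 846. A further 85 of the 208 were called on 1 wood only and 38 on neither. The classes use the same aspen and pine libraries as the comparison of the woods, so these shares are descriptions. In the mean of both woods against maltose, which called 46.1% of the 867 genes (26.3% higher and 19.8% lower on wood), 123 of the 208 were called (79 higher on wood, 44 lower). In 95 of these the change from maltose was larger than the difference between the woods.

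The class counts by direction also depended on the scaling. With the median removed from each comparison, 46.5% of the 867 genes were called between aspen and maltose and 46.1% between pine and maltose. Of the 173 genes then called between the woods, 75 were called in the same direction on both. Among genes higher on both woods than on maltose, 36 were higher and 13 lower on aspen than on pine. Among genes lower on both, the counts were 10 and 16. They were 11 and 22 among genes called on aspen only, 23 and 22 on pine only, and 12 and 8 on neither. The excess of genes lower on aspen in the last 2 classes, described below on the deposited scale, was thus not present with the median removed.

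**Figure D2:**
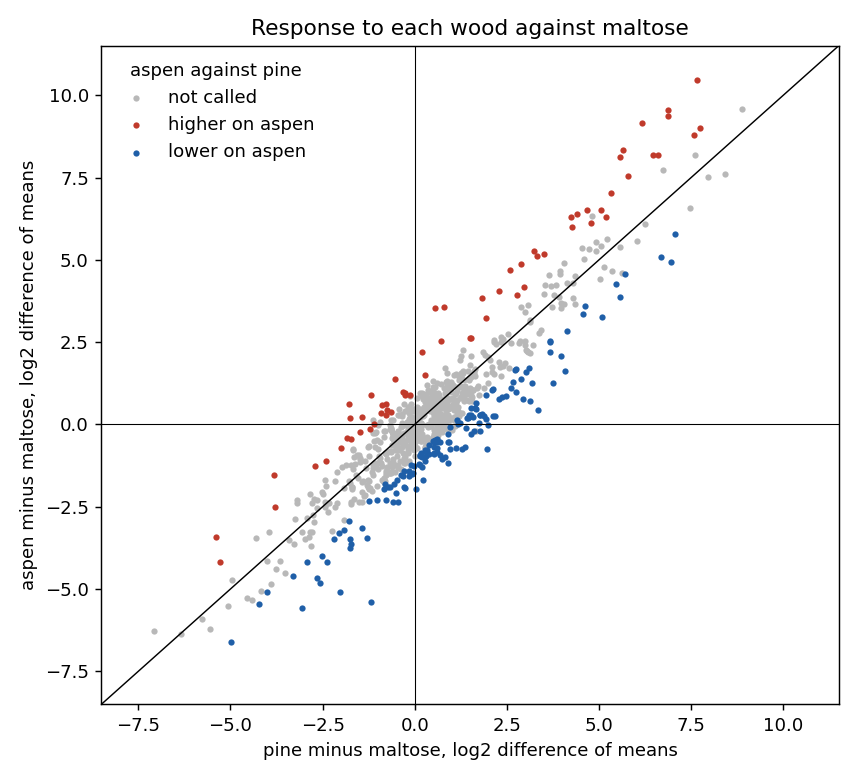
Log2 difference of means from maltose on pine (x axis) and on aspen (y axis) for the 846 genes, coloured by the call between the woods, with the diagonal of equal responses. Both axes share the maltose libraries, which by itself draws points along the diagonal. Red points (higher on aspen) lie above the diagonal and blue points below it by construction, the red ones reaching the strongest rises on wood, and no called gene of either colour was called higher on 1 wood and lower on the other.

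Of the 63 genes higher on aspen, 31 were higher on both woods than on maltose, with a median difference from maltose of 6.31 on aspen and 4.69 on pine. Another 6 were higher than maltose on aspen only, 10 were lower than maltose on pine only, 6 were lower on both woods, and 10 were called on neither. Genes 1037242 and 969318 had the largest differences of the first kind. On maltose, gene 1037242 had 35, 22 and 15 reads, and on pine 1501 and 1182 (reads are not scaled for depth and are given from the deeper to the shallower library). Its deposited means were 4.57 on maltose, 10.73 on pine and 13.73 on aspen, where its reads are unknown. The gene was thus strongly raised on both woods, and higher on aspen than on pine by 3.00 ± 0.26 (SE; limma adjusted p = 7.45e-05). Gene 969318 had a similar order, with 4073 and 2864 reads on pine, 34, 17 and 15 on maltose, and means of 4.44 on maltose, 12.09 on pine and 14.90 on aspen. The aspen minus pine difference was 2.81 ± 0.27 (SE; limma adjusted p = 0.000129). Both had still higher means on cellulose, 14.83 and 16.25. Against straw, both were lower on pine, by differences of -2.33 and -2.32 (limma adjusted p = 0.000532 and 0.00066), while on aspen neither was called. For gene 1037242 the aspen minus straw difference of 0.67 missed a call by its size (limma adjusted p = 0.0459). Reads of both genes were recovered on pine and maltose only, so that these errors include no spread on aspen, straw or cellulose.

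Genes that rose on wood but less on aspen were also found. Of the 145 genes lower on aspen than on pine, 26 were higher on both woods than on maltose, with a median difference from maltose of 2.13 on aspen and 3.72 on pine. Gene 969198 had 1515, 1315 and 1093 reads on aspen, with 6430 and 4079 on pine, against 556, 520 and 383 on maltose. All 3 aspen libraries lay between the maltose and the pine libraries. It was lower on aspen than on pine by a difference of -2.51 ± 0.21 (SE; limma adjusted p = 2.59e-06). Gene 945551 had 724, 666 and 480 reads on aspen, 2882 and 1884 on pine, and 182, 193 and 154 on maltose. Its aspen minus pine difference was -2.45 ± 0.34 (SE; limma adjusted p = 6.03e-05). Again aspen stood between maltose and pine. On straw the means were 12.41 and 10.82, not called against the pine means of 12.67 and 11.54, and both genes were called lower on aspen than on straw.

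A smaller number of genes lower on both woods than on maltose differed between the woods. Of these, 22 were lower still on aspen and 6 were lower still on pine. Gene 970997 had the largest difference between the woods of all 846 genes. It had 104, 127 and 111 reads in the aspen libraries and 1691 and 1276 in the pine libraries. The groups lay far apart, with a difference of -4.21 ± 0.17 (SE; limma adjusted p = 4.04e-08). Its mean was 12.06 on maltose, 10.87 on pine and 6.66 on aspen. It was therefore lower than maltose on both woods, by a difference of -1.19 on pine and -5.40 on aspen. Maltose reads were not recovered for this gene, and its error leaves out the spread there. Gene 377338 had 226, 328 and 135 reads on aspen, 1502 and 1041 on pine, and 6262, 7945 and 5471 on maltose. Its aspen minus pine difference was -3.06 ± 0.33 (SE; limma adjusted p = 8.62e-06). Both genes were lower on aspen than on straw, with differences of -4.26 and -1.28, and gene 377338 was also higher on pine than on straw, by 1.78 (limma adjusted p = 1.04e-08, 0.00228 and 0.000999).

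In the opposite order, gene 969202 kept more of its maltose level on aspen. It had 479, 479 and 485 reads on aspen, 79 and 58 on pine, and 1489, 783 and 1575 on maltose. The difference between the woods was 2.29 ± 0.37 (SE; limma adjusted p = 0.000205). Gene 965600 had much higher levels, with means of 16.68 on maltose, 13.28 on aspen and 11.29 on pine. It was higher on aspen than on pine by 1.99 ± 0.17 (SE; limma adjusted p = 0.000368). Its own spread was known from the 2 pine libraries alone, and through the limma moderation the error also draws on the spread of other genes. Both genes were called lower on pine than on straw and not called between aspen and straw.

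Some genes were called against maltose on 1 wood only. The comparison of the woods tests that difference directly. Genes of this kind called on aspen numbered 37, of which 6 were higher on aspen than on maltose and on pine, and 31 were lower than on both. Gene 1052161 had 61, 56 and 78 reads on aspen, with 6 and 4 on pine. Its maltose libraries had 5, 3 and 4 reads. Aspen thus stood apart from both other groups, and the difference from pine was 3.00 ± 0.40 (SE; limma adjusted p = 4.66e-05). The pine minus maltose difference was 0.55 ± 0.40 (SE; limma adjusted p = 0.229). Gene 981924 was higher on aspen than on pine by 2.77 ± 0.15 (SE; limma adjusted p = 2.59e-06), with means of 12.99 on aspen, 10.21 on pine and 9.42 on maltose, and a mean of 14.29 on cellulose. Its pine level passed the adjusted p against maltose, but with a difference of 0.79.

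Among the 31 genes lower on aspen only, the median difference from maltose was -1.58 on aspen and -0.26 on pine. Gene 942459 had 11247 and 9477 reads on pine and 4019, 3288 and 3889 on aspen. Its mean on pine, 13.68, was close to that on maltose, 13.65, and its aspen minus pine difference was -2.0 ± 0.17 (SE; limma adjusted p = 1.25e-05). Gene 394676 had 8417, 7238 and 6808 reads on aspen, with 26105 and 17584 on pine, a difference of -2.05 ± 0.14 (SE; limma adjusted p = 2.29e-05). On pine, gene 394676 was above maltose by 0.89 (limma adjusted p = 0.000875), which missed a call by its size. Maltose reads were recovered for neither gene. Both genes were also lower on aspen than on straw.

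Genes called against maltose on pine only numbered 48 among the 208. In 38 of them, on the deposited scale, pine was higher than maltose, with a median pine minus maltose difference of 1.71 and a median aspen minus maltose difference of 0.26. Gene 963248 had 6305 and 4019 reads on pine, 1251, 828 and 847 on aspen, and 654, 858 and 432 on maltose. It was lower on aspen than on pine by a difference of -2.92 ± 0.35 (SE; limma adjusted p = 1.86e-05), and its pine level was also above that on straw, by 1.66. Gene 935358 had 29858 and 31396 reads on pine and 6732, 8418 and 5382 on aspen. Its aspen minus pine difference was -2.71 ± 0.39 (SE; limma adjusted p = 0.000159), and pine, with a mean of 15.25, was the highest of the 5 substrates.

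In the other 10 genes of this kind pine was lower than maltose. Gene 966230 had 955 and 894 reads on pine and means of 10.20 on pine, 12.60 on aspen and 11.98 on maltose. It was higher on aspen than on pine by 2.39 ± 0.27 (SE; limma adjusted p = 2.61e-05). On cellulose and straw its means were 9.97 and 10.14, near that on pine. Gene 631509 had 78 and 58 reads on pine, 423, 413 and 405 on aspen, and 212, 190 and 187 on maltose. All aspen libraries were above and both pine libraries below the maltose libraries, and the difference between the woods was 2.08 ± 0.16 (SE; limma adjusted p = 2.44e-06).

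The 38 genes called between the woods but against maltose on neither had, in the median, changes of opposite sign on the woods. Several of these changes passed the adjusted p but were under 1 in size. The opposite signs largely follow from the class itself. Changes of the same sign that are each under 1 cannot differ by 1, the size needed for a call between the woods. For the 28 lower on aspen, on the deposited scale, the median difference from maltose was -0.77 on aspen and 0.53 on pine. For the 10 higher on aspen it was 0.60 on aspen and -0.70 on pine. With the median removed, the balance in this class was 8 lower and 12 higher on aspen. Gene 939243 had 422, 392 and 366 reads on aspen, 1221 and 756 on pine, and 610, 1134 and 478 on maltose. Its aspen minus pine difference was -1.82 ± 0.26 (SE; limma adjusted p = 7.33e-05). Gene 947363 had 146, 151 and 122 reads on aspen, with 363 and 272 on pine, a difference of -1.70 ± 0.17 (SE; limma adjusted p = 5.33e-06). Gene 1077004 had 699, 565 and 534 reads on aspen, with 176 and 123 on pine, a difference of 1.48 ± 0.21 (SE; limma adjusted p = 7.84e-05). Gene 991747 had 506 and 329 reads on pine and 1775, 1607 and 1331 on aspen, which gave 1.40 ± 0.13 (SE; limma adjusted p = 3.23e-06). In each of these 4 genes the maltose libraries lay between the aspen and the pine libraries once scaled for depth.

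**Figure D3:**
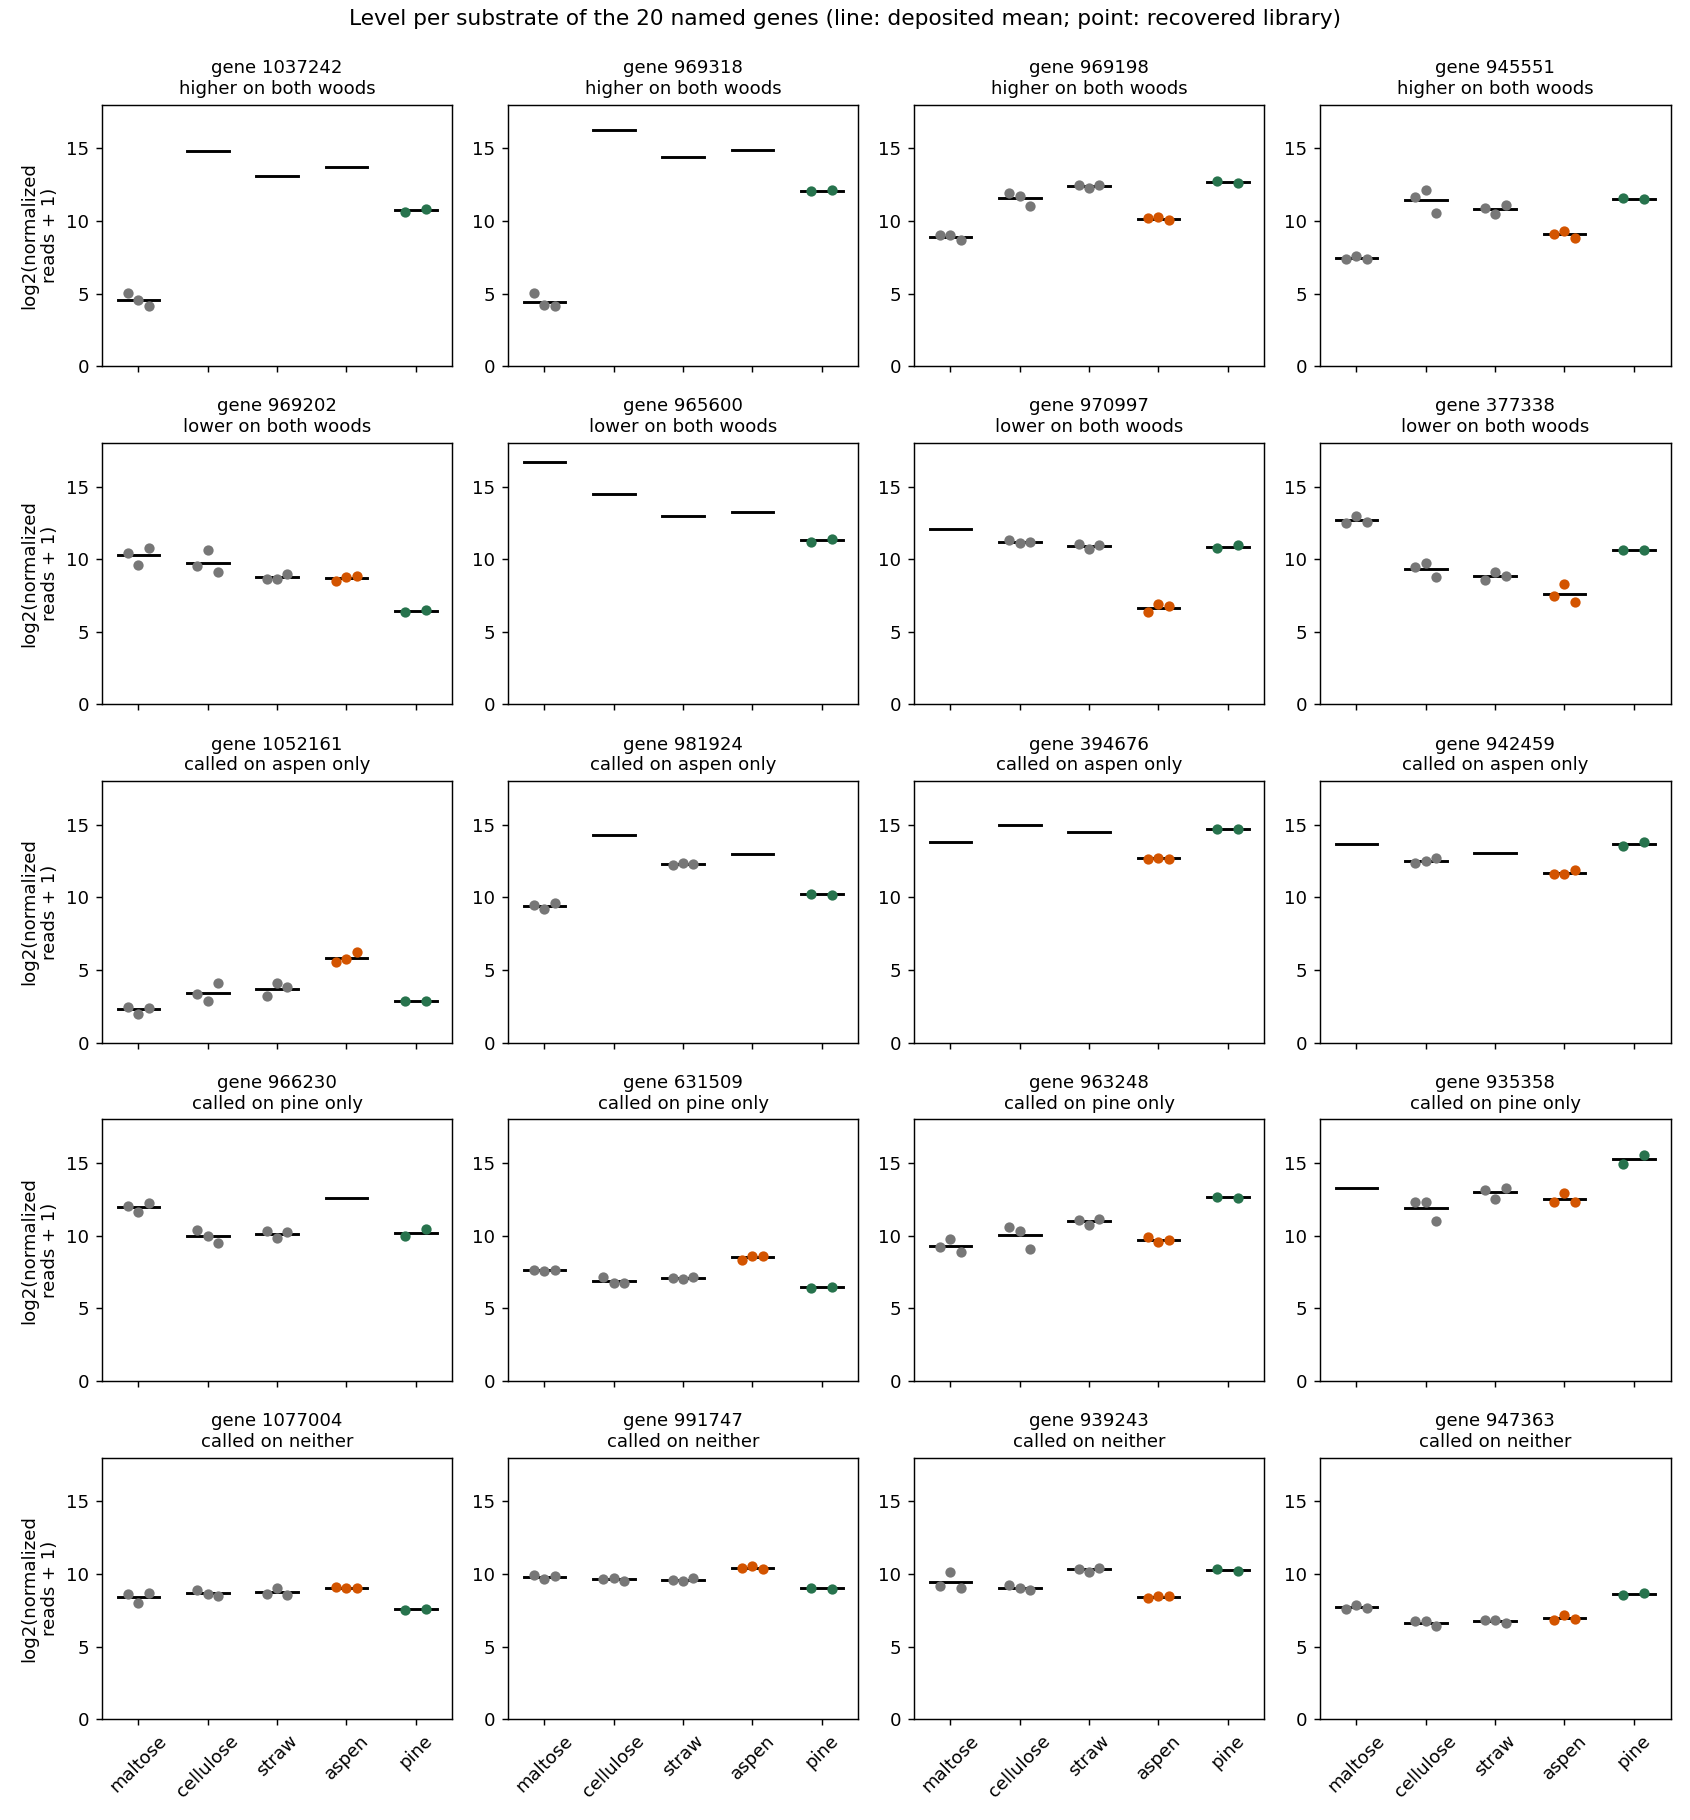
Level on each of the 5 substrates, log2(normalized reads + 1), for the 20 genes described in the text, with each point a library whose reads were recovered and each line the deposited mean. Aspen libraries are orange and pine libraries green. Rows follow the call against maltose, and within a row the left pair of genes is higher and the right pair lower on aspen than on pine. Aspen and pine points do not overlap in any panel that has both.

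Among genes that rose most on wood, more were higher on aspen than on pine. Of the 61 genes whose mean on both woods was at least 16-fold (4 on the log2 scale) above maltose, 22 were higher on aspen than on pine and 8 lower, and the median aspen minus pine difference was 0.61. For rises of 2 to 4 there were 11 higher and 14 lower among 66 genes, and for rises of 1 to 2 there were 2 higher and 23 lower among 102 genes. Among the 56 genes that were 2 to 4 lower on wood, 2 were higher and 17 lower on aspen than on pine. With the median difference removed, the 61 genes had 27 higher and 3 lower on aspen, and the 56 genes had 6 higher and 14 lower. More genes were again lower than higher on aspen for rises of 1 to 2 (5 higher, 14 lower). In the other bins they were not, with counts of 11 higher and 9 lower for rises of 2 to 4, 14 and 14 for rises under 1, 20 and 20 for falls under 1, 7 and 6 for falls of 1 to 2, and 2 and 1 for falls of at least 4. Among those of the 61 with known aspen reads, 9 were called higher and 7 lower. The other 13 called higher were genes of very high level whose error includes no spread on aspen. Calls of either direction were made in 45% of the 80 genes that differed by at least 4 from maltose, and in 18.5% of the 455 that differed by less than 1. The bins use the same wood libraries as the comparison, and the counts are descriptions.

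**Figure D4:**
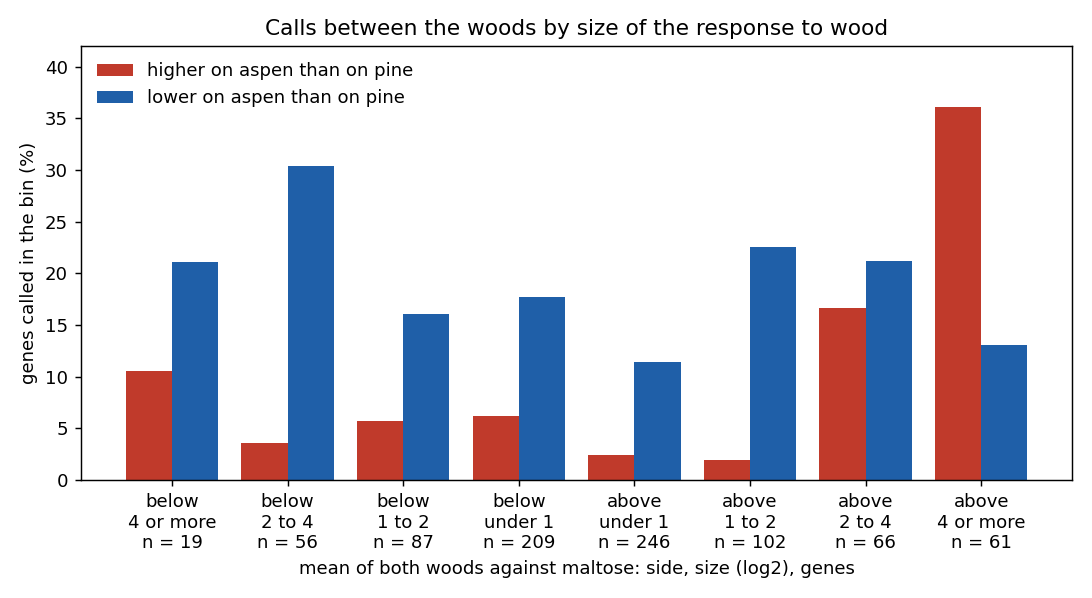
Percentage of genes called higher (red) or lower (blue) on aspen than on pine, in bins of the mean of both woods minus maltose (log2), with the number of genes in each bin under its bars. On the deposited scale blue exceeds red in every bin except the last, where 22 of 61 genes were higher and 8 lower on aspen. With the median difference removed, blue exceeds red in the bins of 2 to 4 lower and 1 to 2 higher on wood only.

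The called genes were also set against straw, whose libraries entered the calls between the woods through the estimate of the spread, not through the difference. Among the 846 genes 199 differed between aspen and straw and 146 between pine and straw (23.4% and 17.3% of the 867 tested). Of those tested, 6.23% were higher and 17.2% lower on aspen than on straw, and 7.5% higher and 9.8% lower on pine. Of the 63 genes higher on aspen than on pine, 33 were lower on pine than on straw and not called between aspen and straw. In 11, aspen was higher than straw and pine was not called. Another 17 were called for neither wood, and in 2 both woods were below straw. Of the 145 genes lower on aspen, 75 were lower on aspen than on straw with no call for pine. In 16, pine was above straw with no call for aspen, in 48 neither was called, in 4 both woods were below straw, and in 2 aspen was below and pine above it. In both directions, on the deposited scale, the most frequent order was thus 1 wood below straw with no call for the other. The same aspen and pine means enter the call between the woods and the comparison with straw. The choice of genes thus favours a lower wood below straw and a higher wood above it. A wood that was not called against straw is not shown to equal it.

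Across all 5 substrates, 66 of the 145 genes lower on aspen had their highest mean on pine and 37 on maltose, and 80 had their lowest mean on aspen and 51 on maltose. The 63 genes higher on aspen had their highest mean on cellulose in 28 cases and on aspen in 21, and their lowest on maltose in 34 and on pine in 19. The call itself excludes aspen as highest and pine as lowest for the 145, and the reverse for the 63. Of the 638 genes not called, 179 were highest on maltose, 142 on pine, 121 on cellulose and 101 on aspen. The lowest mean of these was on maltose in 244, on aspen in 143 and on pine in 65. All these counts are on the deposited scale. Relative to each gene's own mean over the substrates, the median level of these 63 genes was 0.96 on cellulose, 0.58 on straw, 0.96 on aspen, -0.65 on pine and -1.70 on maltose. For the 145 genes the same medians were 0.15, 0.26, -0.81, 0.59 and -0.12.

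**Figure D5:**
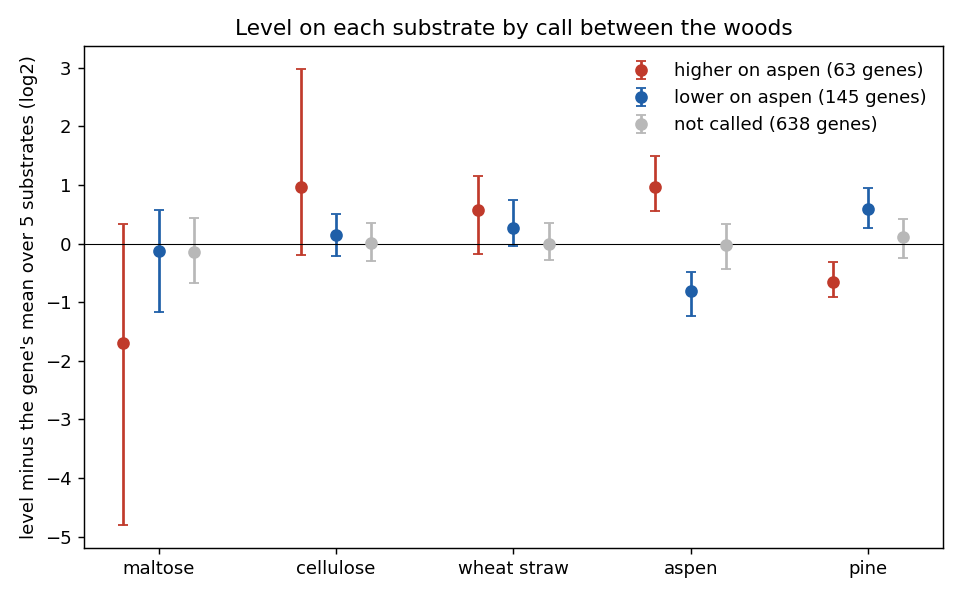
Level on each substrate minus the gene's mean over the 5 substrates (log2), for genes higher on aspen than on pine, lower on aspen, or not called, with points at the median over genes and bars from the lower to the upper quartile. The order of aspen and pine within each colour is set by the call. Cellulose, straw and maltose entered the call through the estimate of the spread, not through the difference.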

How the data were processed

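The deposited values are log2 normalized read counts, 1 column per substrate for 878 genes, per the file headers. The submitters' processing notes name TopHat2, HTSeq and DESeq 1.5. Settings, genome build and the way the libraries were combined are not given here. The 5 columns are means, so the planned test of single libraries needed the libraries to be recovered. Every deposited log2 mean under level 4 (209 of 209) was solved as a mean of log2(reads × factor + 1) with whole reads and 1 factor per library. With these factors, values up to level 13 (all values in pine) were searched for whole reads, within an absolute tolerance of 1.5e-14 under level 8, 4e-14 up to level 10 and 1e-13 above. A library of a group of 3 could differ from the mean by up to 6 under level 8, 4 up to 10, 2.5 up to 11, 1.5 up to 12 and 0.8 up to 13 (log2), and by 6 in pine. Values with exactly 1 solution were used: 3969 of 4390 (90.4%). As a control, of values shifted off the grid of whole reads, 0 of 300 under level 10, 2 of 300 from 10 to 11, 18 of 300 from 11 to 12 and 22 of 290 from 12 to 13 gave a single, necessarily wrong, solution. Pine, with 2 libraries, gave no such solution at any level, so the pooled counts understate the rate in the groups of 3. For aspen the counts were 0 of 60, 1 of 60, 3 of 60 and 5 of 57 in the same order. A gene of high level whose libraries differed by more than the limits can therefore lack reads or, rarely, carry wrong ones. Libraries are lettered A to C from the smallest factor up, and no letter can be tied to a replicate number of the labels. Total library depth is unknown.

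Differences are those of the deposited means. Their spread came from the recovered libraries of all 5 substrates (1 to 9 residual degrees of freedom, all 9 for 661 of the 846 genes, and 1, from pine alone, for 35), moderated with limma 3.58.1 in R 4.3.3 with a mean-variance trend. Genes at level 4 or more in at least 2 libraries were tested (867), two-sided, with Benjamini-Hochberg adjustment over all of them in each of 6 comparisons, and intervals are 95%. The recovery used Python 3.11.15, NumPy 2.4.6 and numba 0.67.0. The recovery and the fit were also run on simulated data, with outcomes not reported here. The simulation of the fit gave every gene and substrate the same variability setting, so it cannot judge an error shared over substrates of unlike spread. The named genes are the 2 with the highest and the 2 with the lowest aspen minus pine difference in each class of response against maltose, among genes called on both scales with over 3 reads in each wood where known. The members, the recovery, the classes and the lists were chosen with earlier results of these data known. Planned lists of enzymes by product name were not used, since no products are given.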

Additional observations from a re-analysis of the deposited data

Results flagged for a closer look

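The response to wood against maltose differed between aspen and pine in 208 genes by the test of the difference itself, which is the comparison of the woods. Among the named genes, all aspen libraries lay on one side of all maltose libraries and both pine libraries on the other in 5, with an aspen minus pine difference (log2) of 2.08 for gene 631509, 1.48 for gene 1077004, 1.40 for gene 991747, -1.82 for gene 939243 and -1.70 for gene 947363. All but gene 631509 were called against maltose on neither wood, a class whose definition largely sets opposite signs.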

How the results depend on the processing

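The number of genes called between aspen and pine (208) lay between 171 and 214 under the alternatives of fit, filter, pseudocount and library shift. It was 453 with no size threshold (139 higher and 314 lower on aspen) and 33 at a size of at least 2 (15 higher and 18 lower). The 145 genes lower on aspen became 96 after a median shift of each library and 81 after removal of the median difference over the 846 genes, an alternative chosen after seeing the data, while the genes higher on aspen rose from 63 to 86 and 92. Leaving out each aspen or pine library in turn gave 157 to 181 calls, with 41 to 62 higher and 109 to 125 lower on aspen, and 56 to 74 genes called in the same direction on both woods, against 85. Leaving out each maltose library gave 208 to 212 calls and 77 to 81 genes called on both woods. Without aspen library B or C 41 genes were higher, and without aspen library C 56 were called on both woods. Leaving out an aspen library drops the 90 genes without aspen reads, 35 of them called, and only 46 of the 63 genes higher on aspen were tested there. No gene called in the main comparison was called in the opposite direction under any alternative. All 257 values of the 20 named genes that could be recomputed kept their direction and their call. The named genes were picked as the largest differences called on both scales, so for the median removal this was set by the choice. The median shift of each library moves the aspen minus pine difference by less (-0.22 against -0.26), so the size needed was met in advance there too. Under the other alternatives the largest differences are the least likely to lose a call, so the 257 values say little about the other called genes. Genes 1037242, 969318, 981924 and 966230 could not be recomputed without an aspen library, nor gene 965600 without any wood library. The maltose libraries were left out as an alternative added after seeing the data. No paired analysis was possible because the recovered libraries carry no replicate numbers. Depth limits the genes of lowest level most, and the genes of highest level lack reads on aspen.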

Other observations

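Libraries on opposite sides of maltose were found beyond the named genes. Of the 709 genes with reads known on aspen, pine and maltose, 12 had all aspen libraries above and both pine libraries below every maltose library, and 28 had the reverse order. Of these, 8 and 20 were called between the woods. The remaining 12 differed by under 1 on the log2 scale or did not pass the adjusted p. Over the 867 tested genes 24% were called, but an order around maltose already requires that aspen and pine libraries do not overlap, which favours a call. The counts are for the deposited scale, and their balance with the median removed was not tested.

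Among the 208 called genes, 2 had a mean under level 4 on aspen and 5 on pine. Of all genes compared, called or not, only 5 lay under level 4 on aspen and 11 on pine. Few genes could thus differ between a wood with and a wood almost without reads. The small counts among the called genes do not show that such genes seldom differed. No called gene with known reads had 3 or fewer reads in all libraries of a wood together. A size of at least 1 without an adjusted p under 0.05 was found in 6 genes.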
